A study of Homo sapiens with 24 samples.

Results

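Acetylation of histone H3 at lysine 9 (H3K9ac) was measured by chromatin immunoprecipitation and sequencing in hTert-HME1 cells, a line of human breast epithelium carrying telomerase (hTert). The sites described here are those at which shHAT1 cells kept no more than 50% of the shControl level. They were chosen by the difference between the shControl and shHAT1 group means, on the log2 scale, which had to be 1.00 or more. Sites starting between 25.5 and 28.5 Mb of chromosome 6, the region of the large histone gene cluster, were left out. Of the 2191 changed sites in the authors' deposited table, 366 met this rule, on 23 chromosomes. A further 1764 sites outside that region were also lower in shHAT1 but kept more than 50%, and they are called the smaller losses below. The remaining sites were 44 in the cluster region, of which 36 reached a difference of 1.00, and 17 with higher H3K9ac in shHAT1.

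H3K9ac marks the nucleosomes around active gene starts and active enhancers, where it is laid down by acetyltransferases of the GCN5/PCAF family and removed by deacetylases such as SIRT6. HAT1 is a different enzyme: it acetylates newly made histone H4 before the histone is placed on DNA, and its known marks are lysines 5 and 12 of H4. Rbap46 (RBBP7) is the WD-repeat histone chaperone that holds the histone for HAT1, and it is also a subunit of deacetylase and Polycomb complexes. The title of the series concerns H4 promoter binding by HAT1, and the H3K9ac libraries ask how another acetyl mark fares when HAT1 is depleted.

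Both H3K9ac groups, of 3 libraries each, were of hTert-HME1 grown in mammary epithelial medium. The first carried a control short hairpin RNA (shControl) and the second a hairpin against HAT1 (shHAT1). The 2 Rbap46 libraries are labelled as untreated hTert-HME1 cells and were set against 2 input libraries labelled as untreated cells. Each library of a group has a name of its own in the titles (shCon2, shCon3 and shCon5; shHAT1 A7, B6 and C5). The labels do not say whether these names stand for separate cell lines or cultures. If they do not, the authors' false discovery rates (FDR) may measure technical spread alone. HAT1 itself was not checked, because expression was not analysed here. Values per library were not used either: the authors' columns are group means, with no SD, and depth per library is unknown. A level below is the authors' log2 mean of normalized reads over the whole site, not per base, so a wide site collects more reads. Positions are those of the tables, in hg19, the build named in the submitters' processing notes.

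The halved sites had lost a little more than one doubling, with few exceptions. Their median difference was 1.12 in the authors' deposited table, with quartiles of 1.05 and 1.23, which left a median of 46.0% of the shControl level. Of the 366 sites, 249 (68.0%) had a difference under 1.2, 102 lay from 1.2 to under 1.5, 11 from 1.5 to under 2.00, and 4 reached 2.00 or more. The smaller losses had a median difference of 0.73 and kept a median of 60.3%. No gap separated the classes: 17 sites stood at a difference of exactly 1.00 and 22 smaller losses at 0.99.

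Single sites on either side of the limit of 1.00 show how close the classes came. At each value, the 3 with the smallest FDR are given, so their FDR are alike partly by this choice. Just inside it, the site at chr12:7053344-7053844 fell from 8.75 to 7.75 (FDR 0.00813) in the authors' deposited table. The sites at chr16:48399452-48400390 (9.59 to 8.59, FDR 0.0254) and chr9:104160505-104161005 (9.14 to 8.14, FDR 0.0296) had the same difference of 1.00 in the authors' deposited table. Just outside it, at 0.99, were chr19:55849770-55850743 (9.30 to 8.31, FDR 0.00813), chr16:28222888-28223388 (9.61 to 8.62, FDR 0.0179) and chr9:139257716-139258216 (9.76 to 8.77, FDR 0.0218) in the authors' deposited table. The levels of the 3 sites on either side of the limit overlapped.

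All 366 sites passed the authors' FDR limit of 0.1, since the table holds no others. Of the 12048 H3K9ac sites that the authors tested, as recovered from the relation of p-value to FDR, 18.0% were called lower in shHAT1 at that limit. At an FDR under 0.05, 237 of the 366 halved sites were called, against 6.56% of all sites tested, and 530 of the 1764 smaller losses. At an FDR under 0.01, 35 halved sites and 9 smaller losses were left, against 0.365% of all sites tested. These counts come from the contrast that chose the sites and are given as a description.

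**Figure D1:**
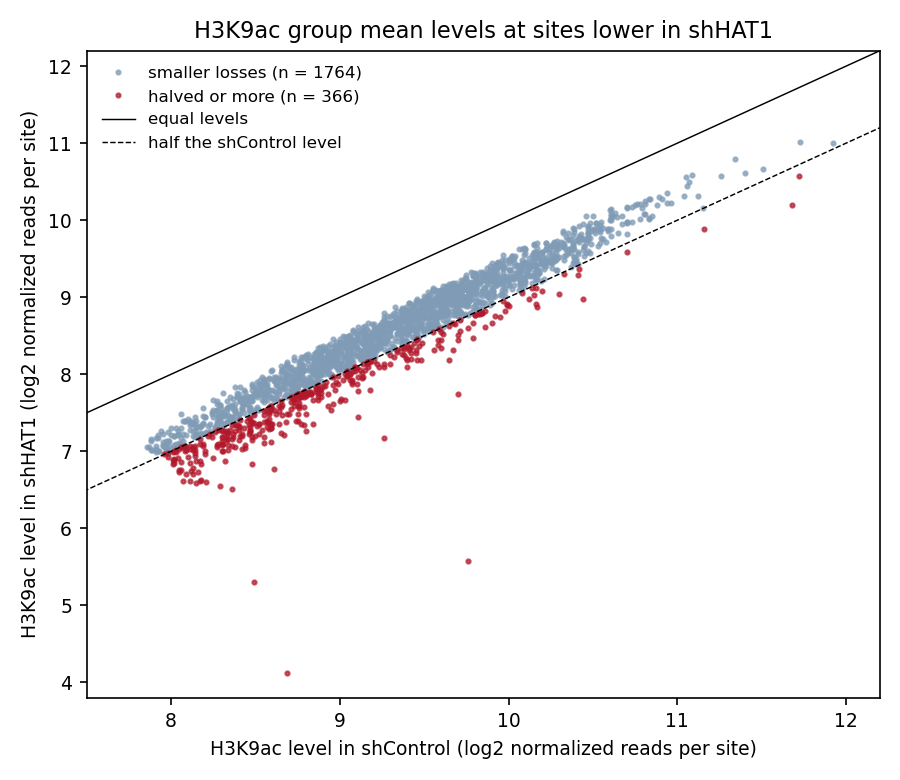
Group mean H3K9ac level of each lower site in shHAT1 (vertical axis) against shControl (horizontal axis), both as log2 normalized reads per site, with 1 point per site and no error because only group means are given. The halved sites lie on or below the dashed line, most of them close to it and towards the low end, and 3 points fall to 5.57 or below in shHAT1.

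The deepest losses were few and scattered. The pair with the largest differences lay 176 bp apart on chromosome 6, far from the histone cluster. Its site at chr6:66970079-66970949 went from 8.69 to 4.12 (difference 4.57, FDR 0.0172) in the authors' deposited table, which left 4.21% of the signal. The partner at chr6:66969402-66969902 went from 9.76 to 5.57 (difference 4.19, FDR 0.0227) in the authors' deposited table. No other changed H3K9ac site lay within 2.69 Mb on one side or 4.15 Mb on the other.

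Next came a site at chr19:35739372-35739872, from 8.49 to 5.31 (difference 3.18), with an FDR of 0.0706, as the authors' deposited table gives them. A site at chr5:52777548-52778484 went from 9.26 to 7.17 (difference 2.09, FDR 0.0882) in the authors' deposited table. Both overlapped an Rbap46 site, with Rbap46 log2 values over input of 1.69 and 2.06 (folds as in the authors' deposited table). The fold on chromosome 5 rests on low levels, 5.59 for Rbap46 and 3.52 for input. The medians over overlapping halved sites were 7.55 and 6.38, and that input level was the lowest among them. Among the 10 largest differences, 7 passed an FDR under 0.05 and 1 an FDR under 0.01. Among the 100 largest, 72 and 18 did, against 64.8% and 9.56% of all halved sites.

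That 1 site was chr1:186528693-186529608, from 8.61 to 6.77 (difference 1.84, FDR 0.00813) in the authors' deposited table. Its nearest changed neighbour, 119 kb away, was also halved, with a difference of 1.41 (FDR 0.000783, from the authors' deposited table). The other 5 of the 10 were chr9:137029554-137030054 (difference 1.95, FDR 0.0557), chr8:120220125-120221089 (1.85, FDR 0.0204), chr13:109924477-109924977 (1.74, FDR 0.0446), chr16:8891018-8891518 (1.66, FDR 0.0204) and chrX:45364850-45366229 (1.65, FDR 0.0336) in the authors' deposited table. Of all 10, 4 overlapped an Rbap46 site and 5 were wider than the smallest site width.

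The sites with the smallest FDR were a different set, of moderate loss and higher level. At chr12:120729570-120730070 the level went from 10.15 to 9.03 (difference 1.12, FDR 3.85e-05) in the authors' deposited table. A second site 844 bp further on, chr12:120730915-120731415, went from 8.80 to 7.26 (difference 1.54, FDR 0.000263) in the authors' deposited table. The stronger of these neighbours overlapped an Rbap46 site and lost less, while the weaker one lay 839 bp from it and lost more. The other 3 were chr19:45981829-45982329 (difference 1.11, FDR 3.85e-05), chr9:140135617-140136117 (difference 1.47, FDR 5.98e-05) and chr1:45196696-45197196 (difference 1.33, FDR 0.000143) in the authors' deposited table.

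Halved sites started from a lower level than the smaller losses. The median shControl level was 8.75 (quartiles 8.38 and 9.18) at the 366 halved sites and 9.41 (quartiles 8.88 and 9.85) at the 1764 smaller losses, from the authors' deposited table. All lower sites were divided by shControl level into 4 bins of similar size. The lowest level bin, with levels up to 8.76, held 191 halved sites, or 52.2% of them, and 353 smaller losses. Halved sites made up 35.1% of the sites of that bin, 17.6% of the next, 8.85% of the third and 6.63% of the highest.

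Level is part of the contrast that chose the sites, and the authors' limit acted on it as well. The smallest difference that reached the table was 0.50 in the lowest bin, 0.46 and 0.43 in the middle bins and 0.40 in the highest. A weak site therefore needed a larger difference to be listed. The limit of 1.00 lay above these values in every level bin, but the shares of halved sites per bin count listed sites only. The part that this selection plays in those shares and in the lower starting level was not tested.

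A small group of halved sites was nonetheless among the strongest H3K9ac sites of the table. The highest shControl level belonged to chr12:54673058-54674914, also the widest halved site at 1857 bp, which went from 11.72 to 10.57 (FDR 0.0283) in the authors' deposited table. Next, the site at chr9:136214261-136215607 went from 11.68 to 10.20 (difference 1.48, FDR 0.0308) in the authors' deposited table. It overlapped 2 Rbap46 sites. Chr12:52540647-52541147 (11.16 to 9.88), chr16:2014155-2014655 (10.70 to 9.59) and chr16:2204964-2205464 (10.44 to 8.98) followed in the authors' deposited table, with FDR of 0.0292, 0.0217 and 0.00467.

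At the other end, the weakest halved sites stood near the lowest levels at which any loss was listed, 7.86. They were chr4:926192-926692 (7.96 to 6.96), chr8:26149158-26149658 (7.98 to 6.92), chr1:67397265-67397765 (7.98 to 6.98), chrX:107639487-107640378 (8.01 to 6.83) and chr16:11875950-11876894 (8.01 to 6.89), with FDR between 0.0571 and 0.0861 in the authors' deposited table. A further halved site on chromosome 3, chr3:151034226-151034726 (8.01 to 6.99, FDR 0.0713), had the same level of 8.01 as the last 2 and a larger FDR in the authors' deposited table. None of the first 5 passed an FDR under 0.05, and only the one on chromosome 4 overlapped an Rbap46 site. For 4 of these 5 the nearest changed site was a smaller loss of higher level more than 100 kb away.

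Sites of both classes mostly had the smallest width of the table, and the next width above it was 793 bp. Among halved sites 53 of 366 (14.5%, 95% Wilson interval 11.2% to 18.5%) were wider, against 410 of 1764 smaller losses (23.2%, 21.3% to 25.3%). These and the following intervals treat sites as independent, which neighbouring sites are not, and cover counting over sites only. The difference was not seen at low levels. In the lowest level bin 12.6% of halved sites and 11.9% of smaller losses were wide, while in the highest level bin the shares were 14.3% (5 of 35 sites) and 33.3% (164 of 493).

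**Figure D2:**
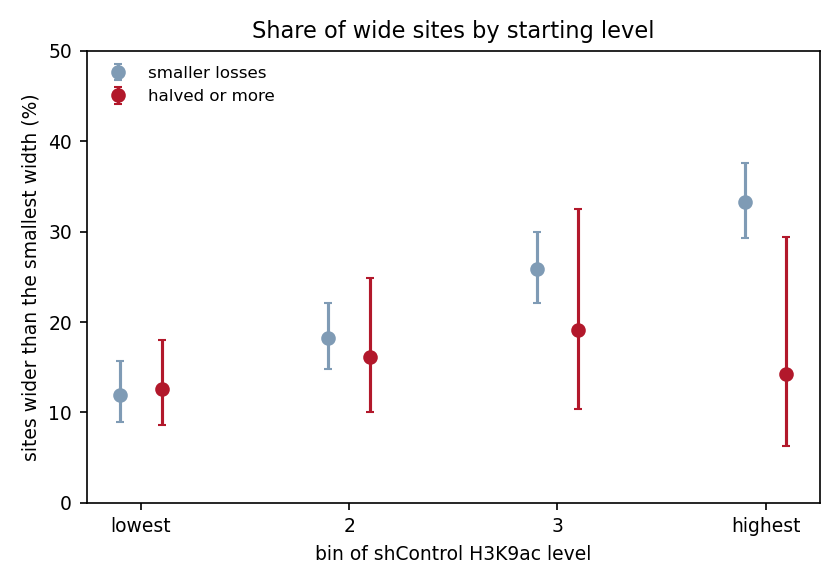
Share of sites wider than the smallest width, in percent (vertical axis), by bin of shControl H3K9ac level (horizontal axis), for halved sites and smaller losses, with 95% Wilson intervals as bars. The share rises with level among the smaller losses, from 11.9% to 33.3%, and stays between 12.6% and 19.1% among the halved sites.

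The widest halved sites after the one on chromosome 12 measured 1692 bp at chr1:151167198-151168889, 1391 bp at chr10:42391583-42392973, 1380 bp at chrX:45364850-45366229 and 1365 bp at chr5:169403479-169404843 in the authors' deposited table. Their differences were 1.04, 1.18, 1.65 and 1.06. None of these 4 overlapped an Rbap46 site, and the last 3 lay 146 to 340.1 kb from the nearest one. Over all wide halved sites 24 of 53 (45.3%) overlapped Rbap46, whereas 365 of 410 wide smaller losses (89.0%) did. The levels of these wide sites differed: 24 halved sites lay in the lowest level bin and 5 in the highest, against 42 and 164 smaller losses. Overlap rose with level in both classes, as given below, and the overlap of wide sites was not divided by level.

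Halved sites more often had another changed H3K9ac site close by. The nearest changed site was under 1 kb away for 116 of 366 halved sites (31.7%, 27.1% to 36.6%) and for 274 of 1764 smaller losses (15.5%, 13.9% to 17.3%). Within 10 kb the shares were 43.7% and 20.9%. The median gap to the nearest changed site was 25.9 kb for halved sites and 114 kb for smaller losses. To the nearest site of the same class it was 632 kb and 141 kb, in the opposite order, and halved sites were the smaller class. A site of the same class lay within 10 kb of 21.3% of halved sites (17.4% to 25.8%) and 16.7% of smaller losses (15.1% to 18.5%). With any changed neighbour counted, halved sites had the larger share at all levels. Within 10 kb it was between 42.4% and 46.8% for halved sites in the 4 level bins, and between 20.05% and 21.5% for smaller losses. Neighbours of the same class were not divided by level. Sites this close lie in the same stretch of chromatin and are not independent of each other.

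Loss at the neighbour was larger too where the gap was under 1 kb. There, 54 of 116 neighbours of halved sites were themselves halved (46.6%, 37.7% to 55.6%), against 64 of 274 neighbours of smaller losses (23.4%, 18.7% to 28.7%). The median difference of those neighbours was 0.97 and 0.85. At gaps of 1 to 10 kb the shares were 36.4% and 30.5%, with intervals of 23.8% to 51.1% and 22.2% to 40.39% that overlapped. At gaps of 10 to 100 kb they were 16.2% and 16.4%, close to the 17.2% of halved sites among all lower sites. Beyond 100 kb they were 19.7% and 13.1%, with intervals of 13.8% to 27.3% and 11.04% to 15.4% that overlapped.

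**Figure D3:**
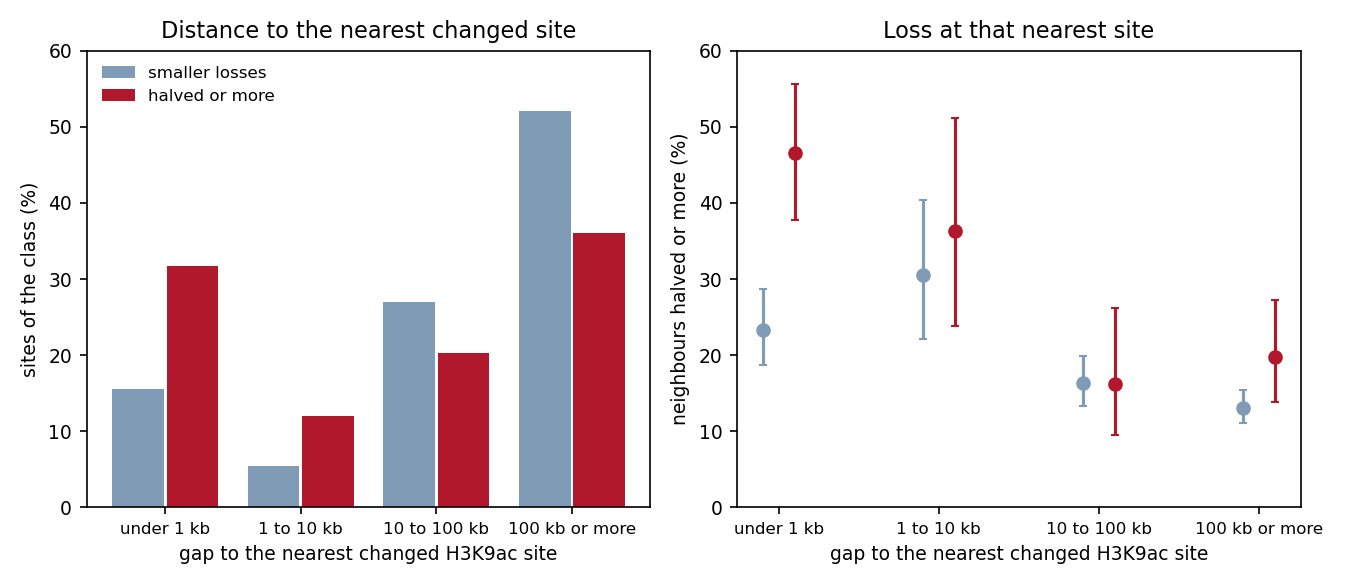
Left, percent of halved sites and of smaller losses (vertical axis) by the gap to their nearest changed H3K9ac site (horizontal axis); right, percent of those nearest sites that were halved, with 95% Wilson intervals as bars. Under 1 kb, 31.7% of halved sites had a neighbour against 15.5% of smaller losses, and 46.6% against 23.4% of these neighbours were halved; at 10 to 100 kb the latter shares were 16.2% and 16.4%.

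Adjacent sites under 1 kb apart formed 211 pairs among the lower sites, of which 29 joined 2 halved sites, 108 joined 2 smaller losses and 74 joined one of each. In the 74 mixed pairs the halved site was the one of lower shControl level in 59 and of higher level in 15. Its median level was 8.77, against 9.67 at its partner. The median of the level differences within pairs was smaller in size, -0.665, the same as the difference in median between the classes. An Rbap46 site overlapped both in 29 pairs, only the smaller loss in 25, only the halved site in 10 and neither in 10. Within such a pair the deeper loss lay more often at the weaker site than at the stronger one. The shControl level is part of the difference that chose the halved sites, and a weak site needed a larger difference to be listed. The part that this selection plays in these counts of pairs was not tested.

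Examples of mixed pairs were chosen after their values were seen, as those in which the losses differed most. On chromosome 16, the halved site at 11836786-11837286 went from 8.18 to 6.83, while the site 104 bp before it went from 9.96 to 9.40 in the authors' deposited table. On chromosome 19, the halved site at 11202106-11202606 went from 8.95 to 7.54, while the site 473 bp before it went from 9.71 to 9.08 in the authors' deposited table. In another pair on chromosome 16, the halved site at 1660872-1661372 went from 8.36 to 7.07, while the site 75 bp before it went from 8.70 to 8.08 in the authors' deposited table. The stronger partner overlapped an Rbap46 site in each of these 3 pairs, and the halved site did so in both pairs on chromosome 16.

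Chaining halved sites with gaps under 10 kb left 288 single sites, 34 runs of 2, 2 runs of 3 and 1 run of 4. The run of most sites, 2679 bp from chr5:90676412 to 90679090, held 4 halved sites in a row. Their levels went from 9.86 to 8.62, 8.13 to 6.70, 8.84 to 7.35 and 8.66 to 7.47 in the authors' deposited table, with FDR between 0.00392 and 0.0233. None of the 4 overlapped an Rbap46 site, but the first lay 80 bp and the last 30 bp from one. A smaller loss just before the run (8.60 to 7.79, difference 0.81) did overlap one, at 1.18 above input on the log2 scale, as the authors' deposited table gives it.

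A run of 3 on chromosome 13, from 109919894 to 109924977, had no Rbap46 site within 351 kb. Its levels went from 9.83 to 8.78, 9.48 to 8.19 and 8.29 to 6.55 in the authors' deposited table. The differences were 1.05, 1.29 and 1.74, so that in this run the loss was larger the lower the level. A smaller loss of the highest level in this stretch, 10.39, lay 1700 bp before the run and had a difference of 0.87 in the authors' deposited table. The run of 3 on chromosome 9 lay from 136856539 to 136858470, and its last 2 sites overlapped Rbap46. Its levels went from 9.07 to 7.90, 9.18 to 7.80 and 9.56 to 8.32 in the authors' deposited table. The differences there were 1.17, 1.38 and 1.24, with the smallest at the lowest level. In the chromosome 5 run the differences, 1.24, 1.43, 1.49 and 1.19, did not follow level either.

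**Figure D4:**
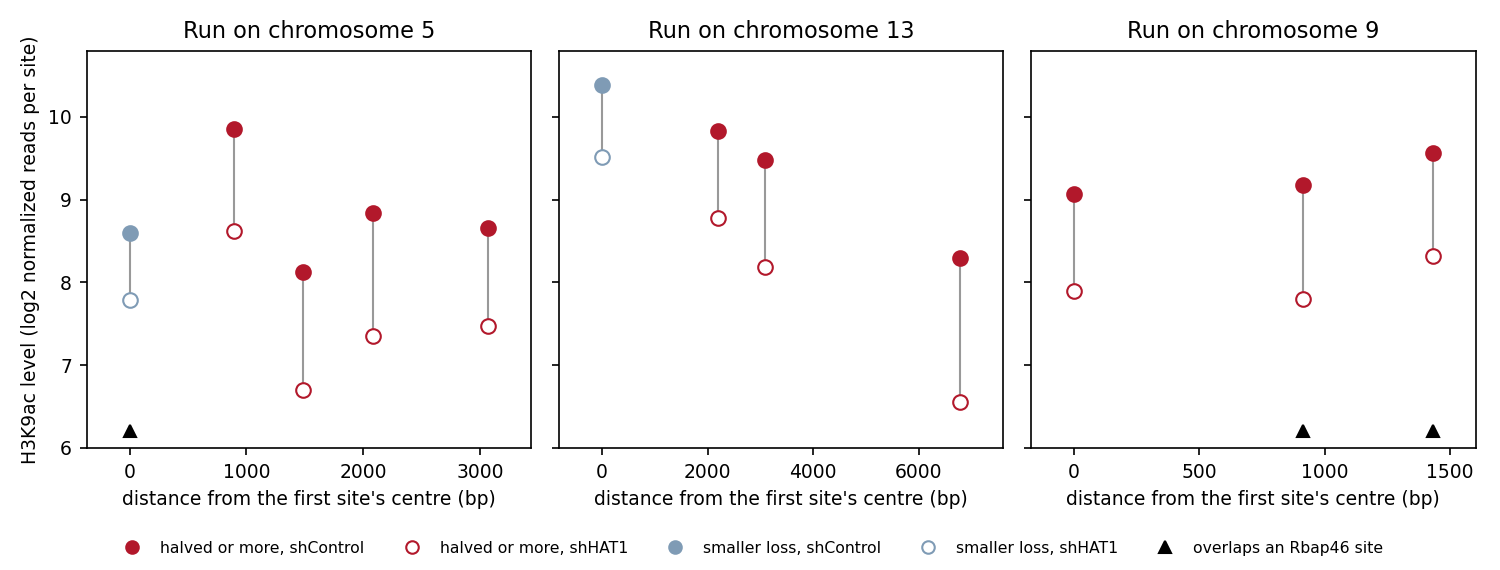
H3K9ac group mean levels (vertical axis, log2 normalized reads per site) at the 3 runs of at least 3 halved sites and at changed sites within 10 kb of them, by distance from the centre of the first site shown (horizontal axis, bp). Filled circles stand for shControl, open circles for shHAT1, and triangles mark sites that overlap an Rbap46 site: 1 smaller loss on chromosome 5, none on chromosome 13 and 2 halved sites on chromosome 9.

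By chromosome, the share of halved sites among lower sites was highest on chromosomes 9, 8, 11 and 7, of the chromosomes with at least 20 lower sites. On chromosome 9 it was 30 of 112 (26.8%, 19.5% to 35.7%), on chromosome 8 it was 15 of 63 (23.8%), on chromosome 11 it was 27 of 129 (20.9%) and on chromosome 7 it was 12 of 63 (19.05%). Over all lower sites it was 17.2%, which lies inside the intervals of chromosomes 8, 11 and 7. Chromosome 13 had few lower sites, and 7 of its 11 were halved.

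On chromosome 9 the halved sites lay mostly at the far end. From 136 Mb to the last site, at 140.5 Mb, 21 of 40 lower sites were halved (52.5%, 37.5% to 67.1%), with a median difference of 1.24 in the authors' deposited table, whereas on the rest of the chromosome 9 of 72 were (12.5%, 6.72% to 22.1%). Halved sites from 136 Mb on had a median shControl level of 9.07, against 8.62 for those on the rest of the chromosome. Over all halved sites it was 8.75. The stretch from 136 Mb was chosen after its values were seen, because its first 1-Mb window, with 9 of 10 lower sites halved, held more than any other window. Next by number were chromosome 16 from 2 to 3 Mb, with 6 of 21, and chromosome 9 from 139 to 140 Mb, with 6 of 14. Otherwise halved sites were spread out: they occurred in 260 windows of 1 Mb, of which 197 held a single one.

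Rbap46 occupancy is a measure that the choice of sites did not use. Of 80828 sites tested by the authors against input, 37.6% were called above input at an FDR under 0.05, and these 30418 sites were used here. In the input libraries, a stretch of chromosome 22 from 19 to 24 Mb had a median level of 7.48 over its Rbap46 sites, against 5.50 on the rest of the chromosome, in the authors' deposited table. The median shControl H3K9ac level was 9.28 over the 4 lower sites of that stretch and 9.52 over the other 39 of the chromosome. No halved site lay there. The input level was thus raised in this stretch while the H3K9ac level was not, over few H3K9ac sites. Whether the Rbap46 and input libraries come from the same cells as the H3K9ac libraries was not tested. All overlap shares, above and below, take them to be the same.

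Fewer halved sites than smaller losses overlapped Rbap46 by at least 1 bp. The overlap was 205 of 366 (56.01%, 50.9% to 61.0%) for halved sites and 1420 of 1764 (80.5%, 78.6% to 82.3%) for smaller losses. The difference was -24.5 percentage points (Newcombe 95% interval -29.9 to -19.1). It kept its sign in each level bin, where the shares were 45.5% against 63.7% in the lowest level bin, 62.4% against 79.3% in the second, 72.3% against 85.5% in the third and 74.3% against 88.6% in the highest. In the third and highest level bins, with 47 and 35 halved sites, the intervals of the difference were wide, at -27.6 to -1.94 and -30.9 to -2.39 percentage points.

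Overlap fell with the size of the loss on both sides of the limit of 1.00. It was 90.1% of 263 sites with a difference from 0.50 to under 0.60, 81.3% of 418 from 0.70 to under 0.80, and 68.0% of 253 from 0.90 to under 1.00. Among halved sites it was 64.3% of 157 up to 1.10, 57.6% of 92 up to 1.2, 49.1% of 53 up to 1.30, 40.8% of 49 up to 1.5 and 33.3% of 15 beyond (15.2% to 58.3%). The exception was the class of smallest loss, under 0.50, with 81.2% of 48 sites. The median shControl level fell along with it, from 9.64 at losses of 0.50 to 0.60 to 8.49 at those of 1.5 or more, and the fall was less even once sites were divided at the median level. At or below the median level, overlap was 83.1% of 71 sites at losses of 0.50 to 0.60 and 93 of 155 at 0.90 to 1.00. Among halved sites there, overlap was 62.5% of 120 up to 1.10, 35 of 70 up to 1.2, 38.5% of 39 up to 1.30, 38.1% of 42 up to 1.5 and 30.8% of 13 beyond. Above the median level, overlap was 92.7% of 192 sites at losses of 0.50 to 0.60 and 80.6% of 98 at 0.90 to 1.00. Among halved sites above it there was no steady fall: overlap was 70.3% of 37 up to 1.10, 81.8% of 22 up to 1.2, 78.6% of 14 up to 1.30, 4 of 7 up to 1.5 and 1 of 2 beyond.

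**Figure D5:**
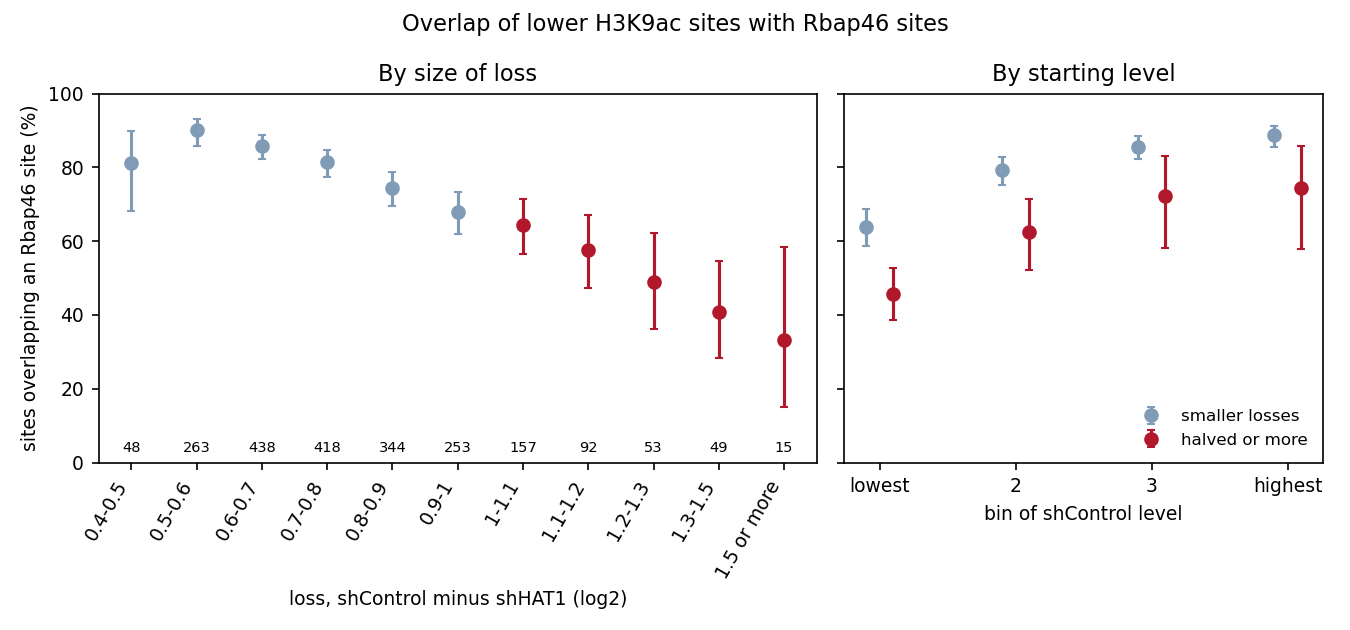
Percent of lower H3K9ac sites that overlap an Rbap46 site (vertical axes), with 95% Wilson intervals: left, by size of the H3K9ac loss on the log2 scale, with the number of sites along the bottom; right, by bin of shControl level. Overlap drops from 90.1% for losses of 0.50 to 0.60 to 33.3% for losses of 1.5 or more, and halved sites stand below smaller losses in all 4 level bins.

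The 161 halved sites without overlap were not all remote from Rbap46. An Rbap46 site lay within 1 kb of 55 of them and within 10 kb of 100, while 35 (21.7%) were 100 kb or more from any. The median distance was 4.61 kb, against 1.41 kb for the 344 smaller losses without overlap. Of these smaller losses 53 (15.4%) were 100 kb or more away. Halved sites without overlap had a median shControl level of 8.58 and a median difference of 1.15, and those with overlap 8.87 and 1.10, in the authors' deposited table.

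Where a halved site did overlap, the Rbap46 signal differed little in median from that at smaller losses. The median of the highest overlapping Rbap46 log2 fold was 1.10 (quartiles 0.90 and 1.37, 205 sites) against 1.2 (quartiles 0.98 and 1.47, 1420 sites) in the authors' deposited table. Rbap46 level had a median of 7.55 against 7.73, and input level one of 6.38 against 6.51. By level bin, from lowest to highest, the difference in median fold was -0.07, -0.065, -0.145 and 0.005.

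The strongest Rbap46 fold at a halved site was 2.46, at chr2:172864741-172865241, where H3K9ac went from 9.09 to 8.04 (FDR 0.0151) in the authors' deposited table. At chr9:139137101-139137601 the Rbap46 log2 fold was 2.40 and H3K9ac went from 9.04 to 7.98 (FDR 0.0314) in the authors' deposited table. Chr16:1660872-1661372 and chr16:1876813-1877313 followed with Rbap46 log2 folds of 2.31 and 2.1 and H3K9ac differences of 1.29 and 1.19 in the authors' deposited table. The fifth was the chromosome 5 site with a difference of 2.09 described above, whose fold rests on low Rbap46 and input levels. The site with the highest Rbap46 fold stood near the lower limit of loss, and the pair with the largest losses lay 1102 kb from any Rbap46 site. The next losses in size, 3.18 and 2.09, did overlap Rbap46. At losses of 1.5 or more the median fold was 1.69 over 5 overlapping sites, against 1.13 over 101 at losses of 1.00 to under 1.10. At losses between these it was 1.00, 1.14 and 1.035, over 53, 26 and 20 sites, with no steady rise.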

How the data were processed

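The series had 24 libraries in 9 groups; 10 libraries in 4 groups stand behind the 2 tables used, and 14 libraries (HAT1, H4K12ac, H4K5ac) were not analysed here. Per the submitters' processing notes, hg19, cutadapt, Bowtie2, Picard, SAMtools, MACS2 and DiffBind were used, with cutadapt 1.8.1, SAMtools 1.2, Picard 1.92, MACS2 2.1.0 and R 3.3.1 named for the libraries other than H3K9ac. Scaling between libraries and the test were not given in the sources used here. Per the file headers, the authors gave log2 concentrations (group means) and log2 folds, and p-values with FDR. Replicates were thus pooled by the authors and no test could be made on libraries. The overall level equalled the log2 mean of both groups within 0.00912.

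Differences were taken from the group columns, rounded to 2 decimals. Overlap meant at least 1 bp shared, and gaps were counted edge to edge. Shares carry Wilson intervals, and their differences Newcombe intervals. The number of sites tested was recovered from p-value and FDR (12047 to 12049 for H3K9ac, 80824 to 80832 for Rbap46). Named sites were the 10 largest differences; the 5 with the smallest FDR, highest and lowest shControl level, largest width and highest Rbap46 fold; runs of at least 3; and 3 on either side of the limit, with ties taken by smallest FDR. The halved sites and this rule were chosen with earlier results of these data known. The planned gene lists, base composition and distance to gene starts were not run, because no genome or annotation of hg19 was used here; for the same reason no sequence is printed. Functions were tested on simulated data. Computations used scipy 1.17.1, pandas 2.3.3 and numpy 2.4.6 under Python 3.11, and plots matplotlib 3.10.9.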

Additional observations from a re-analysis of the deposited data

How the results depend on the processing

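Of 47 alternatives listed beforehand, 24 left a count within 1.5 times, a log2 difference within 0.1 or a share within its interval. The 366 halved sites became 237 at an FDR under 0.05 and 35 at an FDR under 0.01, and 619, 117 and 15 with limits of 0.9, 1.2 and 1.5, all by construction. The difference in starting level, -0.665, was -0.81 with the limit of 1.5. The difference in wide sites, -8.76 percentage points, was 0.667 in the lowest bin of level, -2.07 in the second and -19.0 in the highest. The excess of halved sites with a neighbour within 10 kb, 22.8 points, was 16.2 within 1 kb, 15.98 within 100 kb and 4.59 when only neighbours of the same class counted. Rbap46 overlap, -24.5 points, was -18.4 within 1 kb and -18.2, -16.9, -13.2 and -14.4 in the level bins from lowest to highest. The Rbap46 fold difference, -0.10, was 0.005 in the highest bin; that of Rbap46 level, -0.18, was 0 in the second and -0.005 in the highest; that of input level, -0.13, was 0.01, -0.01 and 0.055 from the second bin up. Apart from the limits just named, the cause was not tested. The alternative width limit of 700 bp selects the same sites. Close pairs, overlap by size of loss and neighbour loss were looked at only after the data were seen; the excess of 0.12 in neighbour loss was 0.115 without the chromosome 6 pair. No paired analysis was possible because only means per group are given, and leaving out a library was not run for that reason. What depth limits cannot be given, since depth per library is unknown; no loss under 0.50 was listed in the lowest level bin.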

Other observations

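Values per library were not used, so the spread between them can be gauged only through the authors' p-value. If that p-value is read as two-sided and normal, although the test is not stated, the difference divided by the matching normal quantile gives a rough standard error. Its median was 0.36 on the log2 scale at halved sites, with an upper quartile of 0.42. At smaller losses the median was 0.26, with a highest value of 0.41. Every site had passed the same FDR limit, and halved sites have the larger differences by the rule. A higher value at halved sites, and a ceiling at smaller losses, are therefore partly fixed by the choice of sites. The same holds for sites picked by FDR or by size of difference. The rough standard error was 0.19 at each of the 2 halved sites with the smallest FDR. At the 4 halved sites with the largest group differences it was 1.17 and 1.16 (the chromosome 6 pair), 1.21 (the chromosome 19 site) and 0.85 (the chromosome 5 site).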
